A study of Homo sapiens with 10 samples.

Results

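Genes of prostate luminal identity and of the androgen response were examined in a human prostate epithelial line that carried ETV1 or ERG. The list held 31 genes. A probe set counted for a gene when the array's annotation named that gene and no other. Of the 31 genes, 28 had such probe sets, 83 in all, among 19775 genes with 41091 such probe sets on the array. ACSL3, HERC3 and SORD had none naming them alone and were not analysed here. Each gene was read first from its lead probe set, the one with the highest average over the 3 groups.

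The data are 10 Affymetrix HG-U133 Plus 2.0 arrays of RWPE-1 cells, an immortalised and non-tumorigenic line of human prostate epithelium grown without added treatment. Every group was infected with MSCV retrovirus and selected as stable clones, and every group expressed BirA, a biotin ligase. The controls carried BirA alone (3 arrays), a second group carried BirA with ETV1 (4 arrays) and the last was labelled BirA with ERG (3 arrays). ETV1 and ERG are ETS transcription factors that gene fusions activate in prostate cancer, and the comparisons ask which members differ when each is overexpressed. The series design speaks of 3 biological replicates. Nothing states that the replicates were separately derived clones, so the spread behind each p-value is that of these arrays and can be partly technical. In RNA from whole cultures, fewer cells of a type and less RNA per cell cannot be told apart.

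Androgens are steroid hormones that act on luminal prostate cells through gene transcription. Steroid signalling relies on cytoplasmic chaperones such as HSP90, and in these cells it uses enhancers that FOXA1, GATA2 and HOXB13 open or share. The best known androgen targets there are the secreted proteins KLK3 (prostate-specific antigen) and KLK2 and the membrane protease TMPRSS2, whose promoter drives ETS genes in many prostate cancers. Other targets, such as FKBP5 and NDRG1, are widely expressed and also respond to other steroids or to stress.

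The ETV1 arrays carried their transgene. The ETV1 probe set 217053_x_at read 1320 ± 355 (SD, n = 4) in them and 88.1 ± 29.0 (n = 3) in the controls. The ERG gene did not settle the label of the last group. Its lead probe set 222079_at read 9.43 ± 1.57 (n = 3) on the arrays labelled ERG and 186 ± 4.61 (n = 3) on the controls, and 211626_x_at read 36.5 ± 12.3 and 9.04 ± 3.23, below the array median throughout. The arrays labelled ERG also stood apart in other measures. Their median intensity was 48.5 to 52.5, against 70.9 to 75.5 on the other 7 arrays. Spearman correlations over all probe sets were 0.766 to 0.811 between ERG-labelled and control arrays and 0.956 to 0.969 between ETV1 and control arrays. The 3′ to 5′ ratio of ACTB, which rises when RNA is degraded, was 2.75 to 3.07 on them and 1.24 to 1.40 on the others. The same ratio for GAPDH was 0.946 to 1.04 on them and 0.893 to 1.05 on the others. The part of these differences in the results for the ERG-labelled arrays was not tested.

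The arrays were checked for markers of basal and luminal epithelium. All 5 measured basal markers, KRT5, KRT14, KRT15, ITGA6 and ITGB4, and all 3 luminal keratins, KRT8, KRT18 and KRT19, lay above the array median on every array. Of the 6 prostate luminal markers among the members, 3 lay above the median on every control array (KLK3, ACP3 and FOXA1), 2 on every ETV1 array (KLK3 and FOXA1) and 3 on every ERG-labelled array (KLK3, FOXA1 and HOXB13).

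Over all member probe sets, 44 of 83 (53.0%) were above the array median on every control array, 40 (48.2%) on every ETV1 array and 40 (48.2%) on every ERG-labelled array. The shares for all probe sets naming 1 gene were 51.4%, 51.3% and 51.1%. By this measure the members as a group were placed much like the array at large. The lead probe set lay above the median on all 10 arrays for 16 of 28 genes.

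Among the transcription factors these were FOXA1, GATA2, GATA3 and SPDEF, an ETS factor of prostate epithelium. HOXB13, a homeobox factor of prostate epithelium, was above the median on 2 of 3 control, 1 of 4 ETV1 and 3 of 3 ERG-labelled arrays. MAF was above it on 1 ETV1 array. Among the secreted proteins KLK3 was above the median on all 10 arrays and ACP3, prostatic acid phosphatase, on 3 control and 3 ETV1 arrays. KLK2 and the microseminoprotein MSMB lay below it on every array. Among the membrane proteins SLC45A3 (prostein), STEAP1 and the exporter ABCC4 were above the median on every array, and FOLH1 (prostate-specific membrane antigen) on none. TMPRSS2 was above it on 3 control arrays and on 1 array of each other group. Of the 9 androgen response genes measured, FKBP5, NDRG1, CAMKK2, ELL2, ZBTB10, TPD52, SGK1 and CENPN were above the median on every array. The exception was the methyltransferase GNMT, which was below it on all 10.

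**Figure D1:**
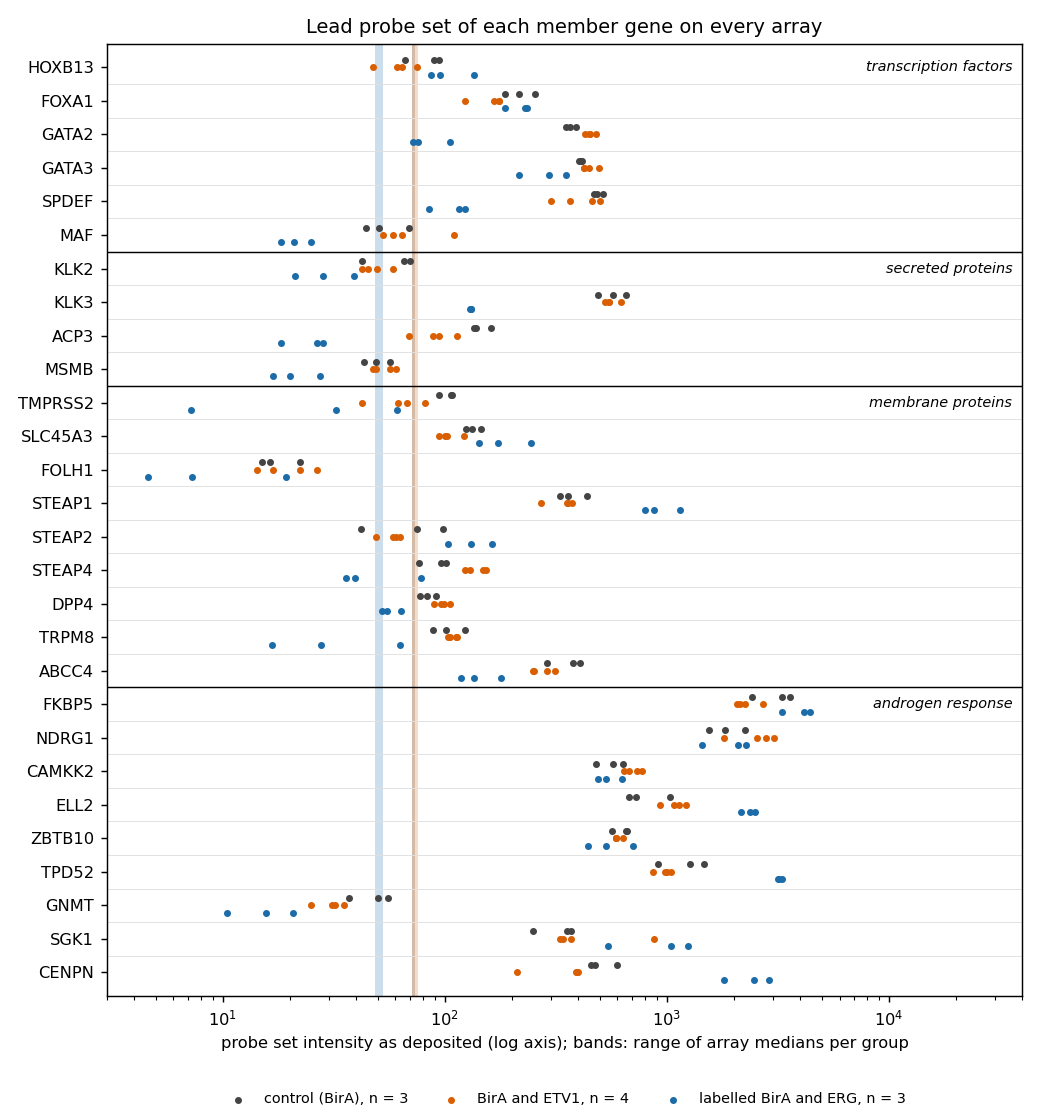
Intensity of the lead probe set of each of 28 member genes on each of 10 arrays, on a log axis, with members grouped by role. Vertical bands span the array medians of each group, 70.9 to 75.5 for control and ETV1 arrays and 48.5 to 52.5 for ERG-labelled arrays; FOLH1, GNMT, KLK2 and MSMB lie left of the bands of their groups and the androgen response genes other than GNMT lie right of them.

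The KLK3 probe sets fell on different sides of the array median. On the controls the lead probe set 231629_x_at read 573 ± 83.8 (n = 3) and lay above the median, 204583_x_at read 70.3 ± 6.60 and lay above it on 1 of 3 arrays, and 204582_s_at read 31.4 ± 15.3 and lay below it. The suffix _x_at marks probes that can match several transcripts. KLK3 and its neighbour KLK2 are near copies, so the KLK3 readings are uncertain.

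Probe sets were tested only if 3 or more of the 10 arrays had them above the median. The filter left 56 member probe sets of 23 genes, including the lead of each, and left out 27. FOLH1, GNMT, KLK2, MAF and MSMB had none tested. Differences are given as differences of mean log2(intensity + 16), which are smaller than the intensity ratios for dim probe sets. A difference passed when its p from limma, adjusted by Benjamini-Hochberg over all 25969 tested probe sets, was under 0.05.

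In cells carrying ETV1, few members changed. ELL2 and STEAP4 rose and ABCC4 and ACP3 fell, each by 1 probe set, and no member changed by 2-fold or more. This was 4 of 56 probe sets (7.14%), against 23.5% of all tested probe sets, with 2 higher (10.4% of all) and 2 lower (13.1% of all). Differences of at least 2-fold passed at 0 of 56 member probe sets and at 1018 of 25969 over all. The median difference was -0.11 over the members and -0.03 over all. By role, 0 of 13 probe sets of transcription factors passed, 1 of 3 of secreted proteins, 2 of 13 of membrane proteins and 1 of 27 of androgen response genes. At an unadjusted limma p under 0.05 the count was 13 of 56, against 9100 of 25969 over all tested probe sets. Tested member probe sets were dimmer than the rest, with a median control intensity of 140 against 232, and whether this bears on the share was not tested.

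The member count moved with the processing. It ranged from 2 to 9 over 21 alternatives, and the share of members passing had its lowest value at 3.61% with no filter and was below the share of all tested probe sets in 21 of 21. It was highest with a 75th percentile filter, 6 of 24 against 34.9% of all. Without control array C the count was 8 (1 higher, 7 lower), and without ERG-labelled array B or C, which enter only through the shared spread and the filter, it was 9 and 8.

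**Figure D2:**
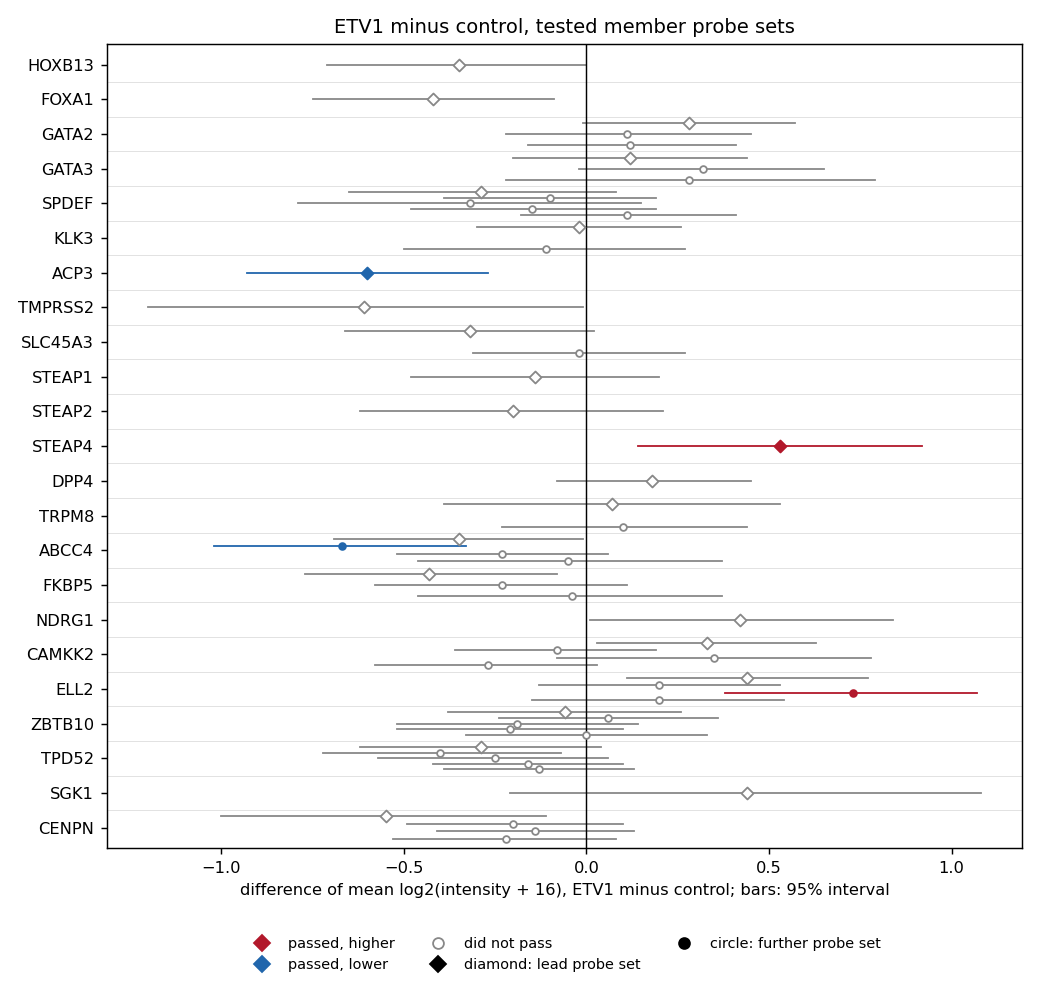
Difference between ETV1 and control arrays for each of 56 tested member probe sets, as mean log2(intensity + 16) with its 95% interval; diamonds are lead probe sets, circles further probe sets, and filled symbols passed. The 4 filled symbols are ELL2 and STEAP4 on the right and ABCC4 and ACP3 on the left, and every member lies between -0.67 and 0.73.

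The 4 genes that passed in ETV1 cells included 3 with an upstream sequence in the RefSeq promoter table used. These 250 bases before the start are shown because ETS factors bind sequences built on the core GGAA. The core is in capitals, as GGAA or as TTCC where it lies on the other strand. The ACP3 sequence is chr3:132317157-132317406 on the plus strand, STEAP4 is chr7:88306895-88307144 on the minus strand and ABCC4 is chr13:95301452-95301701 on the minus strand, all of GRCh38.p14 and all written 5′ to 3′.
ACP3: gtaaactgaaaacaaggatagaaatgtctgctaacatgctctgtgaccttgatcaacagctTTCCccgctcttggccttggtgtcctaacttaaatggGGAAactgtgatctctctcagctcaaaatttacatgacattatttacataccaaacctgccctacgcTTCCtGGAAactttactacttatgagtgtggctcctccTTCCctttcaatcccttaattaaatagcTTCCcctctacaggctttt
STEAP4: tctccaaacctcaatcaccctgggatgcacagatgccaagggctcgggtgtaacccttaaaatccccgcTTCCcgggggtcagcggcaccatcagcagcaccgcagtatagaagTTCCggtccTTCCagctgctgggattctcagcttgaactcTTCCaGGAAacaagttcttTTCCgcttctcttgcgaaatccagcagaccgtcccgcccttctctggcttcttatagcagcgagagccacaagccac
ABCC4: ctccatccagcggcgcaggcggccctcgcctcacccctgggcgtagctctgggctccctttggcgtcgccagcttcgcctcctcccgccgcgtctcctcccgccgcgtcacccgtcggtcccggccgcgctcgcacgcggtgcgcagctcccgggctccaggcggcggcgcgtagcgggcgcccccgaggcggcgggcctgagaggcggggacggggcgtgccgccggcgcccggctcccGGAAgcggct
The ACP3 and STEAP4 stretches each held 6 cores and the ABCC4 stretch held 1. The core was in 95.5% of all 35116 promoters of 300 bases (250 before to 50 after the start, both strands searched), so its presence marks none of them. The longer ETS sequence CCGGAAGT was in 0 of 35 promoters of 20 member genes and in 4.14% of all. The full palindromic androgen response element was in 0 of the 35 and in 1 of all 35116. One side of it, AGAACA, was in 4 of the 35, those of FKBP5, KLK3, SGK1 and TRPM8, and in 14.8% of all. ELL2 had no entry. These are matches of letters within a short window and say nothing of enhancers, where most androgen-regulated binding lies.

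ELL2 is an elongation factor of RNA polymerase II and a known androgen-induced gene. Its probe set 214446_at read 313, 283 and 254 on the control arrays and 490, 575, 505 and 366 on the ETV1 arrays. All ETV1 arrays were above all controls. The difference was 0.73 (SE 0.16, limma adjusted p = 0.0042), and it passed in all 20 alternatives that kept the probe set. The lead probe set 226099_at read 1035, 725 and 676 against 1080, 1226, 1134 and 935, so one ETV1 array lay within the control range. Its difference of 0.44 did not pass in limma (adjusted p = 0.051), though it did in 10 of 21 alternatives, among them without control array A (0.63), ETV1 array D (0.51) or ERG-labelled array B or C. ELL2 probe sets 226982_at and 214445_at each differed by 0.20.

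ABCC4 exports cyclic nucleotides and prostaglandins and is an androgen-responsive gene of luminal cells. Probe set 203196_at read 256, 186 and 165 on the controls and 122, 123, 130 and 101 on the ETV1 arrays. The groups did not overlap. The difference was -0.67 (SE 0.16, limma adjusted p = 0.0066) and it passed in all 20 alternatives that kept the probe set. The other 3 tested ABCC4 probe sets did not pass. The lead differed by -0.35 (95% interval -0.69 to -0.01) and passed only without control array C (-0.49, limma adjusted p = 0.043); 1555039_a_at differed by -0.23 and 243928_s_at by -0.05.

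ACP3 is a secreted phosphatase and a classical marker of luminal cells. It read 161, 139 and 135 on the controls and 68.8, 114, 94.0 and 89.0 on the ETV1 arrays. Every ETV1 array was below every control. The difference was -0.60 (SE 0.16, limma adjusted p = 0.011), and without control array A it was -0.53 and did not pass (limma adjusted p = 0.056). STEAP4, a metalloreductase of the plasma membrane, read 76.5, 96.6 and 101 on the controls and 149, 123, 154 and 130 on the ETV1 arrays. Its arrays did not overlap either. The difference of 0.53 (SE 0.18) was just past the threshold (limma adjusted p = 0.047) and missed it in 11 of 20 alternatives, with adjusted p from 0.0056 to 0.19. These 11 included leaving out any of the 3 control or 4 ETV1 arrays. STEAP1 differed by -0.14 (95% interval -0.48 to 0.20) and STEAP2 by -0.20 (-0.62 to 0.21).

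**Figure D3:**
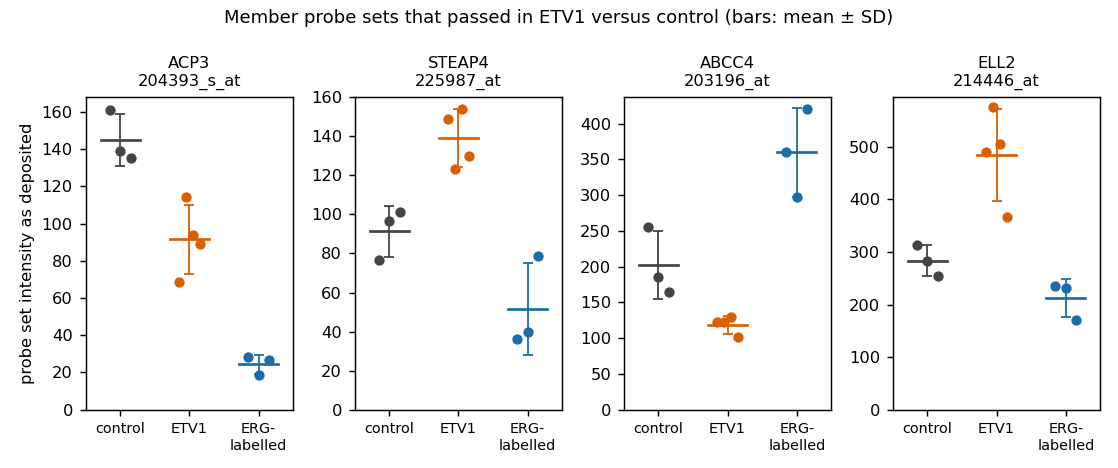
Intensity on every array of the 4 member probe sets that passed between ETV1 and control arrays; points are arrays, bars the mean and SD of 3 control, 4 ETV1 and 3 ERG-labelled arrays, and each axis starts at 0. The ETV1 arrays lie on one side of the controls in each panel, and for ELL2, STEAP4 and ABCC4 the mean of the ERG-labelled arrays lies on the opposite side of the controls from that of the ETV1 arrays.

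The lineage transcription factors did not pass. FOXA1, which opens chromatin at androgen-responsive enhancers, read 256, 217 and 186 on the controls and 167, 175, 176 and 123 on the ETV1 arrays, with every ETV1 array below every control. Its difference was -0.42 (95% interval -0.75 to -0.09, limma adjusted p = 0.060), and it passed in 6 of 20 alternatives, among them without control array C (-0.53, limma adjusted p = 0.032). HOXB13 differed by -0.35 (95% interval -0.71 to 0.00) and the lead of SPDEF by -0.29 (-0.65 to 0.08). The GATA factors lay the other way, at 0.28 (-0.01 to 0.57) for GATA2 and 0.12 (-0.20 to 0.44) for GATA3.

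By its lead probe set KLK3 stayed within the control range in ETV1 cells. That probe set read 656, 573 and 489 on the controls and 526, 552, 551 and 622 on the ETV1 arrays. The difference was -0.02 with a 95% interval of -0.30 to 0.26. KLK3 204583_x_at read 65.6, 67.5 and 77.9 on the controls and 48.2, 84.4, 85.3 and 45.5 on the ETV1 arrays, which lay on both sides of the control range (difference -0.11, 95% interval -0.50 to 0.27). The lead probe set of TMPRSS2 read 108, 107 and 94.1 against 81.2, 61.8, 67.6 and 42.6. Every ETV1 array was lower than every control, but the difference of -0.61 (95% interval -1.20 to -0.01) did not pass (limma adjusted p = 0.13). It passed with only the 2 groups compared and without ERG-labelled array A or B, with limma adjusted p of 0.017, 0.026 and 0.038. SLC45A3, another gene whose promoter is fused to ETS genes, differed by -0.32 (-0.66 to 0.02).

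Among the other membrane proteins DPP4, a peptidase that cleaves hormones and chemokines, differed by 0.18 (-0.08 to 0.45) and the cold-activated channel TRPM8 by 0.07 (-0.39 to 0.53). The lead probe sets of the remaining androgen response genes went both ways and none passed. FKBP5, a co-chaperone of steroid receptors, differed by -0.43 (95% interval -0.77 to -0.08, limma adjusted p = 0.069) and passed in 8 of 21 alternatives. Without control array C the FKBP5 difference was -0.59 (limma adjusted p = 0.015), without ETV1 array D -0.51 (limma adjusted p = 0.039), and without ERG-labelled array B or C the limma adjusted p was 0.044 or 0.047. NDRG1, a stress and differentiation gene, differed by 0.42 (0.01 to 0.84), and without ETV1 array D by 0.58 (limma adjusted p = 0.033). CAMKK2, a kinase upstream of AMPK, differed by 0.33 (0.03 to 0.63), TPD52, a vesicle traffic protein, by -0.29 (-0.62 to 0.04) and ZBTB10, a zinc finger protein, by -0.06 (-0.38 to 0.26). Without control array C the TPD52 difference was -0.48 and passed (limma adjusted p = 0.015).

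Array D of the ETV1 group stood apart for 2 lead probe sets with wide intervals. The kinase SGK1 read 355, 371 and 249 on the controls and 371, 331, 341 and 876 on the ETV1 arrays. Its difference was 0.44 (95% interval -0.21 to 1.08) and fell to 0.11 without array D, where limma's adjusted p was 0.79. The kinetochore protein CENPN read 594, 458 and 474 against 391, 395, 398 and 212, and its difference of -0.55 (-1.0 to -0.11) did not pass (limma adjusted p = 0.067). It passed without ERG-labelled array B or C, with limma adjusted p of 0.043 and 0.036. Without ETV1 array D it was -0.34 (limma adjusted p = 0.17). The transgene itself read 844 on array D and 1302 to 1689 on the other 3 by ETV1 probe set 217053_x_at.

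Members below the test's filter were also read as intensities. GNMT was 49.9, 37.1 and 55.3 on the controls and 32.2, 35.2, 25.1 and 31.1 on the ETV1 arrays, with no overlap. KLK2 was 59.3 ± 14.7 (n = 3) and 49.0 ± 7.15 (n = 4), MSMB 49.8 ± 6.89 and 53.3 ± 5.97, MAF 54.6 ± 13 and 71.3 ± 26.0 and FOLH1 17.9 ± 3.86 and 19.9 ± 5.47. For these 4 genes the arrays of both groups overlapped.

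Genes of steroid receptor chaperones and coregulators mostly fell in ETV1 cells. The list, which also holds the glucocorticoid receptor gene NR3C1, gave 10 genes with a probe set of their own, all tested. By lead probe sets 6 of 10 fell and 1 rose, against 15.2% and 8.81% of all tested genes, and the median difference was -0.54 against -0.06 for all. The same count over the member leads was 1 lower and 1 higher of 23 (8.70%, against 24.0% of all). This list and the members were chosen with earlier results of these data known, so these counts are a description only.

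The cytosolic chaperones fell together. HSP90AA1 read 7144 ± 529 (n = 3) in controls and 3981 ± 426 (n = 4) in ETV1 cells, a difference of -0.84 (limma adjusted p = 3.7e-04). The HSP90 co-chaperones PTGES3 and FKBP4 differed by -0.68 (limma adjusted p = 0.0015) and -0.70 (limma adjusted p = 0.0016). Of the coactivators and the demethylase on the list, KDM1A (-0.66), CREBBP (-0.59) and NCOA1 (-0.49) fell, while the acetyltransferase EP300 rose by 0.82. NCOA4 (-0.40), PIAS1 (0.12) and NR3C1 (0.09) did not pass. These proteins serve many other clients and factors.

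**Figure D4:**
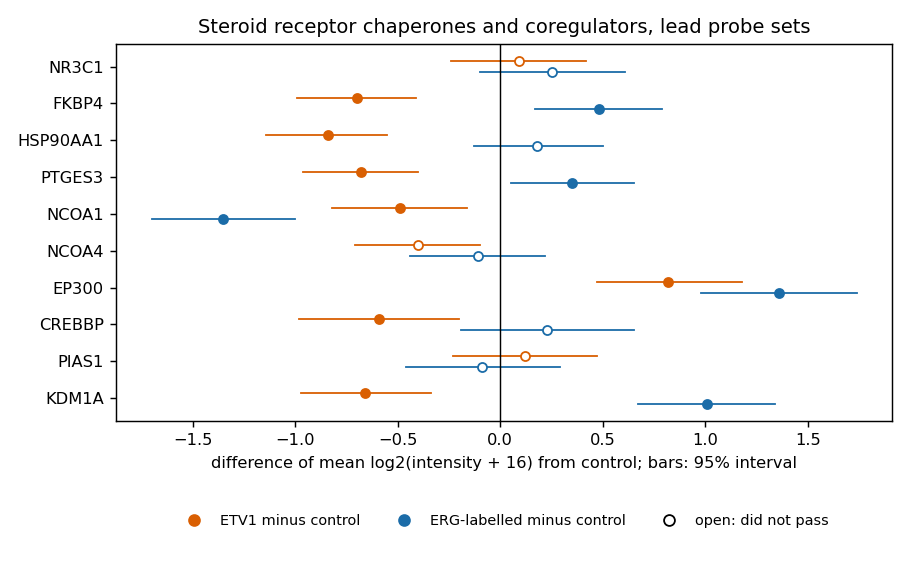
Difference from control of 10 genes on ETV1 arrays and ERG-labelled arrays, as mean log2(intensity + 16) with its 95% interval. The genes are steroid receptor chaperones and coregulators, with NR3C1 counted among the 10. Filled symbols passed. In ETV1 cells 6 genes are filled left of 0, between -0.84 and -0.49, and EP300 is filled right of 0 in both comparisons.

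A further list of 31 androgen-regulated genes outside the members had 25 tested. In ETV1 cells 3 fell and 1 rose, against the 15.2% and 8.81% of all tested genes given above. PMEPA1, an androgen- and TGF-beta-induced inhibitor of SMAD signalling, fell by 1.33 on the log2 scale (2217 ± 296 to 895 ± 228, limma adjusted p = 1.2e-04). STK39 differed by -0.77, TNFAIP8 by -0.47 and GUCY1A1 by 0.53, of which TNFAIP8 passed in 12 of 20 alternatives and GUCY1A1 in 8 of 19. Of the luminal keratins KRT19 rose by 0.74 and KRT18 fell, with a difference of -0.57, while KRT8 differed by 0.06. Of the basal markers KRT15 rose by 1.05 and KRT14 by 0.41. KRT19 and KRT15 did not pass without control array C (0.44, limma adjusted p = 0.071, and 0.67, limma adjusted p = 0.18). KRT15 passed in 15 of 21 alternatives, and without ETV1 array D it was 0.67 (limma adjusted p = 0.047). KRT18 did not pass without control array A (-0.51, limma adjusted p = 0.082), after quantile normalization (-0.34, limma adjusted p = 0.096) or with the replicate block (-0.42, limma adjusted p = 0.078). KRT14 passed in 14 of 21 alternatives, not without any of the 3 control arrays or ETV1 arrays A, C or D.

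The arrays labelled ERG differed from the controls at most members, as at most of the array. Among the members KLK3, ACP3 and SPDEF read lower, TPD52 and STEAP1 read higher, and 7 genes, ELL2 and CENPN among them, passed in both directions by different probe sets. In all 44 of 56 member probe sets passed (78.6%), against 78.4% of all tested probe sets. Of these 19 were higher (43.3% of all) and 25 lower (35.1% of all). The share of members passing was that of the background. Differences of at least 2-fold passed at 29 of 56 member probe sets and at 11115 of 25969 over all. By lead probe sets 17 of 23 passed (73.9%, against 79.3% of all), 7 higher and 10 lower (47.7% and 31.7% of all). Centring each array on its median turned the split to 28 higher and 18 lower and moved the median of all probe sets from 0.17 to 0.58, with the share of higher among all that passed going from 55.2% to 68.2%. Quantile normalization gave 21 and 22.

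For 6 of the 56 probe sets, of GATA3, ELL2, ZBTB10 and TPD52, the test's filter was met on the ERG-labelled arrays alone. These 6 entered the test through those arrays, so their direction is a description only. Of the other 50, 13 were higher and 25 lower. Some of the lower ones were above the median on no ERG-labelled array and entered through control and ETV1 arrays alone. They were SPDEF 214403_x_at and 214404_x_at, KLK3 204583_x_at, ACP3 204393_s_at, TRPM8 243483_at, ABCC4 1555039_a_at and 243928_s_at, CAMKK2 207359_at and CENPN 234811_at. Their direction, and the split of the 50, are likewise a description only.

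KLK3, ACP3 and SPDEF were lower, and FOXA1 and HOXB13 did not pass. KLK3 read 131, 130 and 131 on the ERG-labelled arrays against 489 to 656 on the controls, a difference of -1.99 (SE 0.14, limma adjusted p = 3.5e-09). ACP3 read 28.2, 18.4 and 26.6 against 135 to 161, a difference of -2.0. Neither overlapped the controls. SPDEF was lower by all 5 of its probe sets. All 5 carry the suffix _x_at for probes that can match several transcripts, so the SPDEF readings are uncertain too. Its lead read 116, 124 and 85.0 against 470 to 518 (-2.04), and 214403_x_at read 7.84, 18.6 and 2.27 against 480 to 560, a lower reading whose size moved with the pseudocount (-6.00 with 1 and -3.01 with 64). Probe set 214404_x_at was listed at 1, near the lowest deposited values, on all 3 ERG-labelled arrays and at 83.5 to 124 on the controls. The smallest SPDEF difference, -0.42 by 213441_x_at, did not pass after quantile normalization (-0.22) or median centring (-0.01), nor without control array B (-0.38, limma adjusted p = 0.060) or ERG-labelled array C (-0.30, limma adjusted p = 0.069). FOXA1 read 186, 236 and 230 against 186 to 256, a difference of -0.01 (95% interval -0.36 to 0.34), and 0.40 after median centring (limma adjusted p = 0.037). HOXB13 differed by 0.28 (-0.10 to 0.66), and by 0.63 after quantile normalization (limma adjusted p = 0.0067) and 0.69 after median centring (limma adjusted p = 0.0030).

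The membrane proteins split. STEAP1 read 874, 1148 and 801 against 332 to 437, a difference of 1.28 without overlap, and STEAP2 differed by 0.80. STEAP2 was above the median on 2 control, 0 ETV1 and 3 ERG-labelled arrays. It met the test's filter only with the ERG-labelled arrays, so its direction is a description only. STEAP4 differed by -0.72, TMPRSS2 by -1.43, TRPM8 by -1.30 and DPP4 by -0.46. STEAP4 and DPP4 did not pass under either scaling, at -0.36 and -0.04 after quantile normalization and -0.31 and -0.05 after median centring. Among the androgen response leads CENPN read 2470, 2884 and 1807 against 458 to 594 (2.18) and TPD52 read 3316, 3156 and 3214 against 910 to 1476 (1.42). ELL2 differed by 1.53 and SGK1 by 1.43. FKBP5 (0.36), NDRG1 (0.03), CAMKK2 (-0.03) and ZBTB10 (-0.19) did not pass by their leads. After median centring FKBP5 passed (0.77) and CAMKK2 passed as higher (0.38), while after quantile normalization CAMKK2 (-0.27) and NDRG1 (-0.55) passed as lower. ZBTB10 passed as lower after quantile normalization (-0.45) and without ERG-labelled array C (-0.36).

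**Figure D5:**
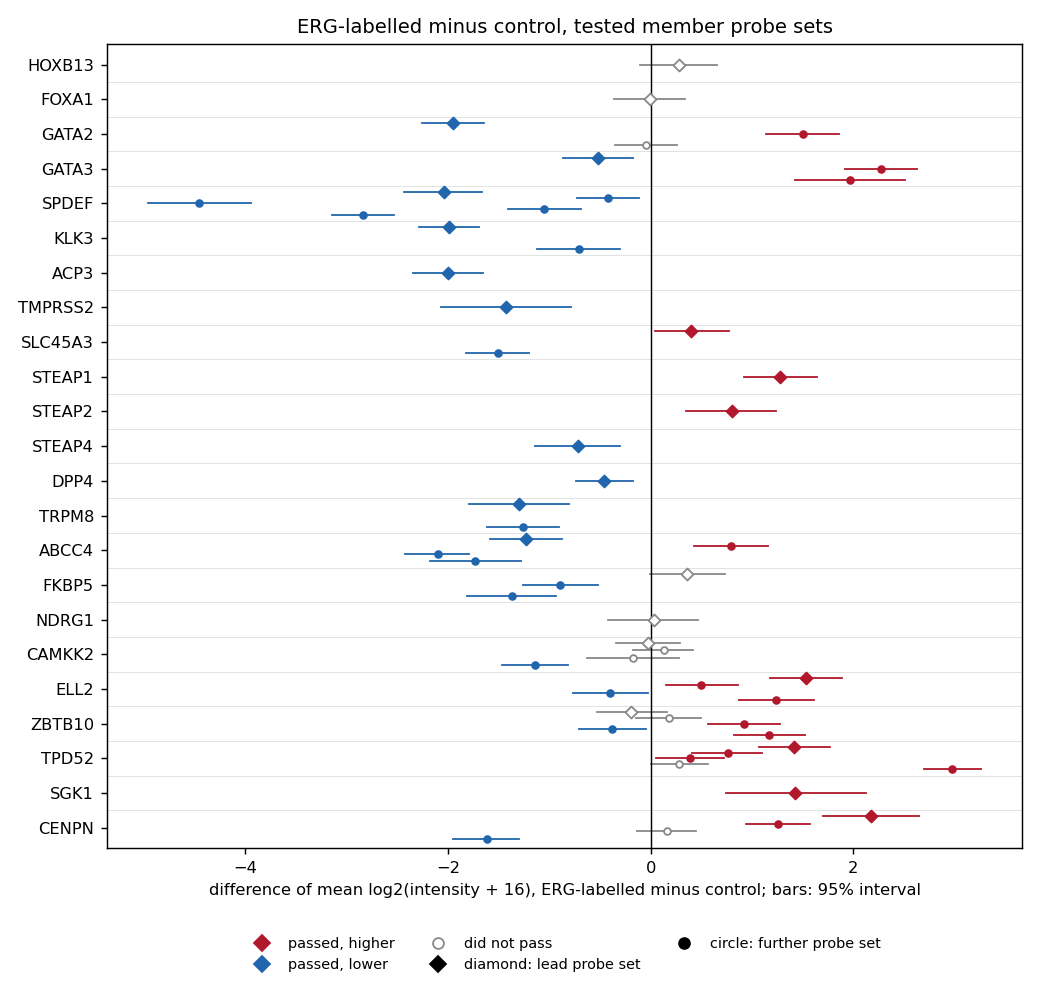
Difference between ERG-labelled and control arrays for each of 56 tested member probe sets, as mean log2(intensity + 16) with its 95% interval; diamonds are lead probe sets, circles further probe sets, and filled symbols passed. Filled symbols lie on both sides of 0 within ABCC4, CENPN, ELL2, GATA2, GATA3, SLC45A3 and ZBTB10.

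Probe sets of one gene often disagreed on these arrays. Of 12 member genes with at least 2 passing probe sets, 7 had some higher and some lower (58.3%), and so did 50.3% of the 4989 such genes over the array. GATA2 was lower by its lead 207954_at (106, 76 and 72.3 against 351 to 389) and higher by 209710_at (342, 340 and 358 against 96.7 to 126). GATA3 was lower by its lead (-0.52) and higher by 209603_at and 209602_s_at, which are 2 of the 6 probe sets named by the filter. The GATA3 lead did not pass after median centring (-0.11) or without ERG-labelled array B (-0.33, limma adjusted p = 0.054).

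ABCC4 203196_at, the probe set that fell in ETV1 cells, read 361, 297 and 421 against 165 to 256 (0.79), while the other 3 ABCC4 probe sets differed by -1.23 to -2.10. ELL2 214446_at, the probe set that rose in ETV1 cells, read 235, 232 and 170 against 254 to 313 (-0.40, limma adjusted p = 0.047), while the other 3 differed by 0.50 to 1.53. This lower reading of ELL2 passed in 10 of 20 alternatives. CENPN was lower by 234811_at (-1.62) and SLC45A3 by 238499_at (-1.51), against 2.18 and 0.40 for their leads. The SLC45A3 lead passed in 13 of 20 alternatives, and without ERG-labelled array B it differed by 0.21 (limma adjusted p = 0.23). ZBTB10 was lower by 222863_at (-0.38), which differed by 0.02 after either scaling, and higher by 219312_s_at (0.92) and 236105_at (1.17), which are among the 6. For these 7 genes the array gave no single direction. All passing probe sets pointed one way for FKBP5, KLK3, SPDEF and TRPM8 (lower) and TPD52 (higher), though TPD52 201688_s_at, at 0.39, differed by -0.07 after quantile normalization. KLK3 204583_x_at (-0.71) did not pass after quantile normalization (-0.36, limma adjusted p = 0.11) or median centring (-0.30, limma adjusted p = 0.15). The FKBP5 lead at 0.36 lay the other way without passing. TPD52 201691_s_at, another of the 6, read 10.4 to 15.6 on the controls and 197 to 222 on the ERG-labelled arrays, and its difference moved with the pseudocount (3.97 with 1 and 1.84 with 64). In the comparison of ETV1 with control arrays, 46 of 1147 genes over the array (4.01%) had probe sets passing both ways, and no member gene did.

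Genes that mark other cell types moved on the same arrays. The summed intensity of the 3 endothelial markers was 1370 to 1562 on the controls, 1260 to 1397 on the ETV1 arrays and 170 to 193 on the ERG-labelled arrays. For the 4 fibroblast markers it was 923 to 1155, 1047 to 1086 and 205 to 276, and for the 4 measured neuroendocrine markers 322 to 383, 386 to 490 and 98.2 to 139. For the 2 measured leukocyte markers it was 180 to 261, 190 to 219 and 36.8 to 78.1. None of these markers was at or under 1 on every array of a group. On the controls each list had at most 2 genes above the array median: PECAM1 of the endothelial list, COL1A1 and DCN of the fibroblast list, CHGA of the neuroendocrine list and CD3E of the leukocyte list. CHGA, COL1A1, DCN, PECAM1 and CD3E were lower on the ERG-labelled arrays, with differences of -1.86 to -2.98. In ETV1 cells none of the 5 passed, and CHGA differed by 0.41 (limma adjusted p = 0.057). The neuroendocrine markers did not move together on the ERG-labelled arrays, and CHGA made up most of their sum on the controls. INSM1 also read lower, 7.75 ± 3.15 (n = 3) against 41.5 ± 18.6 (n = 3) on the controls. CHGB read higher, 52.2 ± 16.6 against 22.2 ± 7.63 without overlap, and SYP overlapped the controls. PECAM1 made up most of the endothelial sum on the controls (1393 ± 91.5, n = 3). On the ERG-labelled arrays VWF also read lower without overlap, and CDH5 overlapped the controls. COL1A1 and DCN made up most of the fibroblast sum, with COL3A1 also lower without overlap and LUM overlapping. CD3E made up most of the leukocyte sum, and PTPRC also read lower without overlap. The part of these markers in the member results was not tested.

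The chaperone and coregulator genes and the other androgen-regulated genes went both ways on the arrays labelled ERG. Of the 10 on the first list 4 were higher and 1 lower, against the 47.7% and 31.7% of all tested genes given above, and of the 25 other androgen-regulated genes 16 were higher and 5 lower. KDM1A was higher by 1.01 and EP300 by 1.36, and NCOA1 differed by -1.35. The chaperone genes PTGES3 (0.35) and FKBP4 (0.48) passed as higher, but after quantile normalization they differed by -0.17 and -0.04, and PTGES3 passed in 14 of 21 alternatives.

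Set against each other, the ERG-labelled and ETV1 arrays differed at 49 of 56 member probe sets (87.5%, against 82.1% of all). Of these 23 were higher on the ERG-labelled arrays (45.6% of all) and 26 lower (36.5% of all). Median centring turned this split to 26 higher and 18 lower and moved the median of the members from -0.17 to 0.26 and that of all probe sets from 0.20 to 0.62, with the share of higher among all that passed going from 55.5% to 67.4%. Quantile normalization gave 21 and 23. Because of how probe sets met the filter, as given above, this split is a description only. By lead probe sets 10 of 23 were higher and 11 lower, against 50.4% and 32.7% of all. Both comparisons with control use the same 3 control arrays, so their values are set side by side only. ACP3 differed from control by -0.60 with ETV1 and by -2.0 with the ERG label, and by -1.40 between the latter and ETV1. STEAP4 differed from control by 0.53 and -0.72, and by -1.25 directly. ABCC4 203196_at differed from control by -0.67 and 0.79, and by 1.47 directly. ELL2 214446_at differed from control by 0.73 and -0.40, and by -1.13 directly. Each of these 4 direct differences passed in limma, with adjusted p of 3.6e-07 for ACP3, 9.3e-06 for STEAP4, 3.6e-07 for ABCC4 and 7.9e-06 for ELL2. ACP3 was above the median on no ERG-labelled array and entered the test through control and ETV1 arrays alone. Its direct difference is likewise a description only. FOXA1 was higher on the ERG-labelled arrays than on the ETV1 arrays by 0.41 (limma adjusted p = 0.022) and HOXB13 by 0.63 (limma adjusted p = 0.0025). The FOXA1 difference was 0.30 without ETV1 array D (limma adjusted p = 0.077), 0.35 without ERG-labelled array B (limma adjusted p = 0.070) and 0.37 without ERG-labelled array C (limma adjusted p = 0.056). NDRG1 (-0.40) and the lead of ZBTB10 (-0.13) were the only member leads that did not pass in this direct comparison.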

How the data were processed

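The authors deposited linear intensities, 1 for each probe set of an array; their summarisation and scaling steps are not given in the sources used here. Many values sit at or under 1, and the lowest deposited value is 0.48. No further normalization was applied. Probe sets were named from the platform annotation: of 54675, 41091 name 1 gene, 1801 several, 11721 none and 62 are controls, and 54 symbols had no match in the reference table. Tests used limma 3.58.1 (lmFit, eBayes) in R 4.3.3 on log2(intensity + 16), with the 3 groups in one two-sided model (7 residual degrees of freedom), adjusted by Benjamini-Hochberg over all tested probe sets. The fit was checked on simulated data. The number of arrays limits the precision. Every member gene is named, by its lead probe set, and further probe sets where they passed. From each other list the 3 genes with the smallest adjusted p in ETV1 cells were named, with the other chaperone and coregulator genes and marker genes named after their values were seen. The members and lists were chosen with earlier results of these data known. Alternatives were 2 scalings (quantile normalization, median centring), other filters and pseudocounts (1 and 64), limma with trend and robust, only the 2 groups compared, a replicate block, 1 probe set per gene, dropping multi-transcript probe sets, and leaving out each array. Silencing in LNCaP and VCaP cells was not analysed here.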

Additional observations from a re-analysis of the deposited data

Results flagged for a closer look

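In 5 of 58 probe sets of members examined in the ETV1 group, 1 of 4 arrays lay far from the other 3, by the gap to its nearest neighbour as a share of the range (Dixon's test at its 95% critical value). Chance gives about 1 in 20. SGK1 read 876 on array D and 331 to 371 on the others. CENPN (219555_s_at) read 212 on array D and 391 to 398 on the others. ZBTB10 read 633 on array D by 228562_at, against 591 to 592, and 70.6 on array B by 219312_s_at, against 44.0 to 48.2. ABCC4 read 93.6 on array A by 1555039_a_at, against 119 to 123.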

How the results depend on the processing

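Per comparison, 72 results were refitted in 1397 alternatives. For ETV1 versus control 1297 kept their side of the threshold, 48 lost it, 52 gained it and none that passed in either fit changed sign; for ERG-labelled versus control the counts were 1303, 58, 24 and 12, and for ERG-labelled versus ETV1 1329, 55, 10 and 3. Among those that kept their side, 24, 18 and 9 changed sign without passing. The ETV1 count of 4 member probe sets was 9 after quantile normalization, 7 after median centring, with a pseudocount of 64 and with trend and robust, and 2 without multi-transcript probe sets; leaving out 1 array gave 3 to 9. The 44 of ERG-labelled versus control and the 49 of ERG-labelled versus ETV1 became 19 and 20 with a 75th percentile filter, 17 and 21 with 1 probe set per gene, and 25 and 28 without multi-transcript probe sets, as fewer were tested; leaving out 1 array gave 35 to 44 and 38 to 49. The replicate block gave 6, 44 and 46. Deviations from group means correlated at -0.0992 to 0.0872 between arrays of the same letter in different groups. Between arrays of different letters they correlated at -0.1586 to 0.1015. With so few arrays these values do not settle whether a letter marks a pairing. In ERG-labelled versus control, median centring reversed FOXA1 (0.40), CAMKK2 (0.38), ELL2 214446_at (0.01) and ZBTB10 222863_at (0.02), and quantile normalization reversed NDRG1 (-0.55), ZBTB10 222863_at (0.02), TPD52 201688_s_at (-0.07), HSP90AA1 (-0.36), PTGES3 (-0.17), FKBP4 (-0.04), KRT14 (-0.27) and ITGA6 (-0.48). In ERG-labelled versus ETV1, median centring reversed SPDEF 213441_x_at (0.11) and CAMKK2 (0.07), and quantile normalization FKBP5 (-0.02). The cause was not tested. The share of members passing was below that of all tested probe sets in 21, 14 and 4 of the 21 alternatives. With no filter all 83 member probe sets were tested and 3, 53 and 64 passed. These were 3.61%, 63.9% and 77.1%, against 12.2%, 65.9% and 69.9% of all probe sets then tested. The leads of KLK2, MSMB, MAF and GNMT then passed as lower in both ERG-labelled comparisons, that of FOLH1 only against ETV1, and none of the 5 in ETV1 versus control.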
